A study of Mus musculus with 6 samples.

Results

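The genes of fatty acid synthesis and desaturation described here were chosen by symbol for their known roles: Srebf1, Fasn, Acaca, Scd1, Scd2, Elovl5, Elovl6, Fads1, Fads2 and Acsl3, which are 10 of the 42256 genes in the count table. Macrophages make, lengthen, desaturate and activate fatty acids with a small set of enzymes under the transcription factor SREBP1. Acetyl-CoA carboxylase and fatty acid synthase build palmitate, elongases of the ELOVL family lengthen it, and desaturases of the SCD and FADS families place double bonds. Acyl-CoA synthetases then couple the fatty acid to coenzyme A so that it can enter phospholipids, cholesteryl esters or triglycerides. SREBP1 is released from the endoplasmic reticulum by the carrier SCAP, is held there by INSIG proteins when sterols are plentiful, and its gene is a target of the oxysterol receptor LXR.

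This set was examined in total RNA of macrophages grown from the bone marrow of mice, adult and male, that lack Cdh11, the gene of the adhesion protein cadherin-11 (CDH11-/-, here KO, 3 libraries), and of mice with an intact gene (CDH11+/+, here WT, 3 libraries). All mice were of mixed background (129S1/Sv x C57BL/6). Marrow cells of either genotype grew for 7 days in medium with 20% L929-conditioned medium, a source of the macrophage growth factor CSF1, and 10% serum, and had no further treatment. The design text of the series speaks of 4 KO animals, and 3 KO libraries were analysed here. The labels name no animal for a library, and a p-value here reflects only how far these libraries differ, which may be technical.

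Of the 10 genes, 9 passed the filter on low counts. Scd1 did not, and was tested by adding it back to the filtered table. Levels are CPM, counts scaled to a common library total after TMM normalization, given as mean ± SD with n = 3 libraries per genotype. Rises and falls are differences for which edgeR's quasi-likelihood test of KO against WT gave a Benjamini-Hochberg adjusted p under 0.05.

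The libraries held 27170943 to 37113689 counts, and mitochondrial genes took 2.09 to 2.43% of them. Cdh11 itself was almost silent, with 6, 4 and 5 counts in KO libraries and 6, 11 and 6 in WT libraries, so it does not check the genotype labels. All 7 macrophage markers were above 1 CPM in every library. Their summed level was 19120 to 24870 CPM in KO and 30498 to 33163 CPM in WT libraries, 2 of them falling (Csf1r and Lyz2) and 1 rising (Cd68). Most of this sum was Lyz2, at 13042 to 18118 CPM in KO and 22772 to 24782 CPM in WT libraries. Adgre1, Itgam, Mertk and Fcgr1 did not pass the test, so the sum does not stand for the markers as a whole. Markers of fat cells, which make fatty acids at high rates, were at or near 0: the 6 genes summed to 0.0343 to 0.133 CPM in KO and 0.107 to 0.138 CPM in WT libraries, and Cidec, Cfd and Retn had no count in any library. Osteoclast markers summed to 85.3 to 145 CPM in KO and 38.3 to 56.8 CPM in WT libraries, with 3 of 4 tested rising and Calcr at 0. Erythroid and megakaryocyte markers summed to 177 to 281 CPM in KO and 167 to 243 CPM in WT libraries, with 2 of 3 tested rising (Itga2b and Ppbp). The part of these lists in the results was not tested. In bulk RNA, fewer cells of a type and less RNA per cell cannot be told apart.

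Among the fatty acid genes Fads1 alone passed the test, and it fell. Its product is a desaturase of polyunsaturated fatty acids. Thus 1 of 9 tested members was called (11.1%), against 35.2% of all 12862 genes tested, with 0 members rising, at an unadjusted p under 0.05 as well, where 18.5% of all genes rose and 1 falling where 16.8% of all genes fell. For 2 of the 9, Fads1 and Acsl3, every KO library lay on one side of every WT library in CPM, against 53.4% of all genes tested. The log2 fold changes of the 9 ran from -0.35 to 0.19 with a median of -0.17, and 7 were below 0. Of the 9, 3 had an unadjusted p under 0.05 (Fads1, Acsl3 and Fasn), each with a log2 fold change below 0. Among all 12862 genes tested, 6172 had such a p, in either direction. Over all genes tested the median log2 fold change was 0.00139. The median absolute log2 fold change was 0.19 for the 9 members and 0.25 for all genes. The median standard error was 0.12 for the 9 members and 0.099 for all genes.

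**Figure D1:**
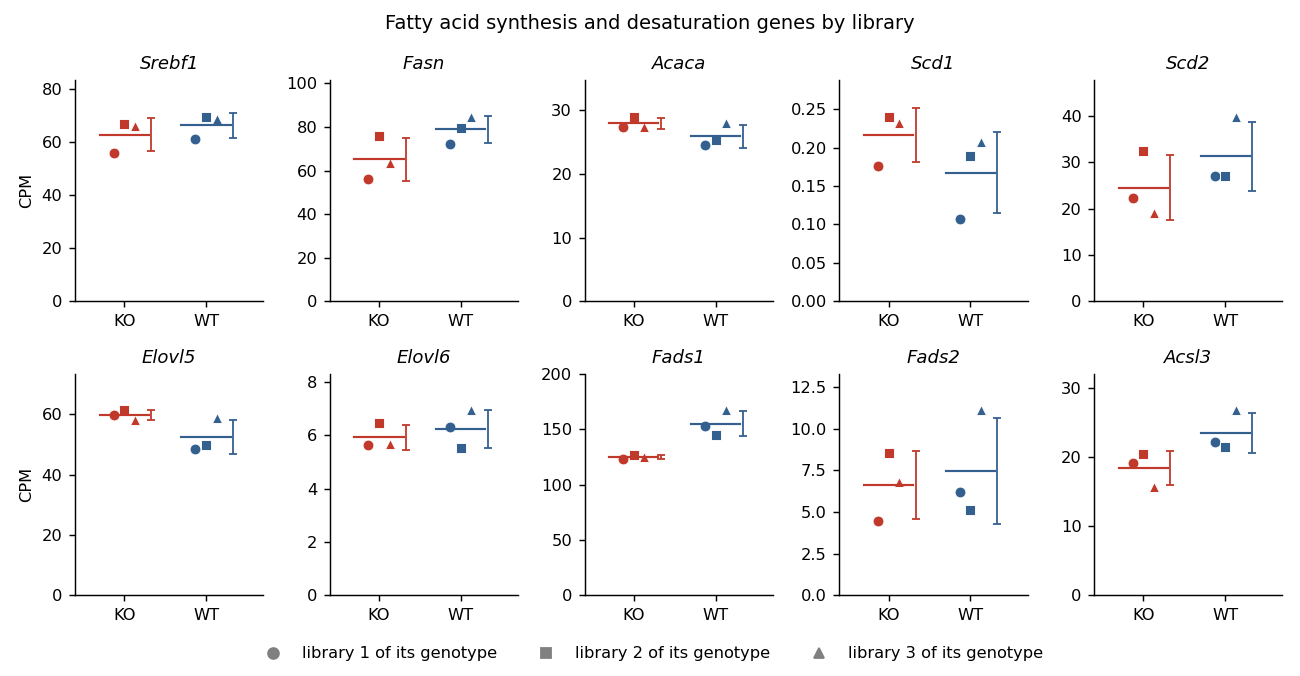
CPM of each of the 10 genes (y axis, linear, from 0) in the 3 KO (red, left) and 3 WT libraries (blue, right), with marker shape for the library, a line for the mean and a bar for the SD. The KO libraries of Fads1 lie between 123 and 127 CPM, all below the WT libraries at 145 to 167 CPM, while Scd2 and Fads2 overlap between the genotypes with 1 high library in each.

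Srebf1 encodes SREBP1 (ENSMUSG00000020538, GRCm38 chromosome 11, 60199089 to 60222581, minus strand). It stood at 55.8, 66.9 and 66.0 CPM in KO libraries and at 61.1, 69.7 and 68.7 CPM in WT libraries. The groups overlapped, with KO 1 and WT 1 the lowest of their genotypes. The log2 fold change was -0.08 (95% interval -0.29 to 0.13, adjusted p = 0.506), which in percent is a change between -17.9 and 9.15%. Gene-level counts do not separate the transcripts of SREBP1a and SREBP1c, which begin at different first exons. Of its 5634 exon bases, 109 also belong to Rai1 on the opposite strand.

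Of the enzymes that build palmitate, neither passed the test. Acaca, the carboxylase that makes malonyl-CoA (ENSMUSG00000020532, chromosome 11, 84129672 to 84401651, plus strand), stood at 27.3, 29.0 and 27.4 CPM in KO libraries, against 24.5, 25.3 and 28.0 CPM in WT libraries. Its log2 fold change was 0.11 (95% interval -0.06 to 0.27, adjusted p = 0.259), and WT 3 lay within the KO range. Fasn, the fatty acid synthase (ENSMUSG00000025153, chromosome 11, 120805846 to 120824547, minus strand), stood at 56.1, 75.9 and 63.4 CPM in KO libraries, against 72.1, 79.7 and 84.7 CPM in WT libraries. KO 2 was above WT 1, so the groups overlapped. Fasn had a log2 fold change of -0.27 (SE 0.12, unadjusted p = 0.0496, adjusted p = 0.104 in edgeR's quasi-likelihood test), with a 95% interval in percent of -31.6 to -0.0399%. Without KO 2 it was -0.40 with an adjusted p of 0.0269. With any other single library left out it was -0.34 to -0.18 and did not pass edgeR's test (adjusted p 0.114 to 0.242).

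The promoters below allow the sequences before the start sites of a synthase that did not pass the test, an elongase that did not, and the sterol sensor gene Insig1, which fell (its values follow further on), to be set side by side. They are the 250 bases before the RefSeq start on GRCm38.p6, 5′ to 3′ on the gene's strand, for Fasn at chr11:120824548-120824797 (minus strand), Elovl5 at chr9:77917115-77917364 (plus strand) and Insig1 at chr5:28071162-28071411 (plus strand). Capitals mark CCAAT, the box of the factor NF-Y that acts with SREBPs, in either direction (as ATTGG on the other strand), and the E-box CACGTG.
Fasn: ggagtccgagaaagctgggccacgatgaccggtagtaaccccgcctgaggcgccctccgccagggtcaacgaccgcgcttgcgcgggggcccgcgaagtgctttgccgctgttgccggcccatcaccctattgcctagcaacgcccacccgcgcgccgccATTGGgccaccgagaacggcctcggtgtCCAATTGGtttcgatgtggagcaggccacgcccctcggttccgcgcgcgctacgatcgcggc
Elovl5: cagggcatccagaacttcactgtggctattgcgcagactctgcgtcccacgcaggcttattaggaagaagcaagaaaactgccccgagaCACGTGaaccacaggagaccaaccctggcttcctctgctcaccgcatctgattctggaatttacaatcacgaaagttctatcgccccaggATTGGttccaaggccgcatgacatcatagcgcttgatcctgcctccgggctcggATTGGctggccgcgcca
Insig1: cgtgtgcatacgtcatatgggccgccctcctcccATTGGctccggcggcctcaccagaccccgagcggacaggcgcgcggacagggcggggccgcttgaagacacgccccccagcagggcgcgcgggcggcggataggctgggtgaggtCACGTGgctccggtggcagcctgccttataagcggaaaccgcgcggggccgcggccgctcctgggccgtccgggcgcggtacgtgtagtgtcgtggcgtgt
Fasn held 3 CCAAT boxes, starting 90, 62 and 59 bases before the start, the last pair overlapping on opposite strands in CCAATTGG. Elovl5 held 2 and Insig1 held 1, and the E-box was found once in each of these and not in Fasn. These windows are shown because they hold matches: the windows of Elovl6, Acaca and Fads2 held neither motif, that of Acsl3 held 1 CCAAT box, and the 3 windows of Srebf1 held 1, 0 and 1. The Acaca window, at 84195188 to 84195437, lies inside the annotated gene (84129672 to 84401651, plus strand). So do the Srebf1 windows at 60220628 to 60220877 and at 60210472 to 60210721. The Fads2 window, at 10101504 to 10101753, lies mostly inside its gene (10062765 to 10101746, minus strand). These windows are thus not the sequence before the gene's first annotated base. The windows of Insig1 and Elovl6 run past that base, at 28071363 and 129532355, and that of Elovl5 ends on it. Among 32817 windows of the same length in the RefSeq table, 33.8% held a CCAAT box, 10.1% held 2 or more and 2.79% held 3 or more, and 6.02% held CACGTG. A 10-base form of the sterol response element and a direct repeat of the LXR type, searched on both strands, were in 0.0731% and 0.0152% of all windows and in none of the members' windows, which says only that the forms searched are not there. The table held 7 of the 10 members, without Scd1, Scd2 and Fads1.

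The stearoyl-CoA desaturases place the first double bond in saturated fatty acids, and in these macrophages nearly all their counts came from Scd2. Scd2 (ENSMUSG00000025203, chromosome 19, 44293674 to 44306864, plus strand) had 633, 944 and 574 counts in KO libraries and 1007, 717 and 1156 in WT libraries. Scd1 (ENSMUSG00000037071, chromosome 19, 44394455 to 44407879, minus strand) had 5, 7 and 7 counts in KO libraries and 4, 5 and 6 in WT libraries. Scd1 thus made up 0.784, 0.736 and 1.205% of the counts of the pair in KO 1 to KO 3. In WT 1 to WT 3 the share was 0.396, 0.693 and 0.516%. Exact Clopper-Pearson 95% intervals of these shares reached from 0.108 to 2.47% over the 6 libraries and cover counting error only. The transcripts of Scd1 share 145 of their 4888 words of 50 bases with those of Scd2, so part of the Scd1 counts may be reads that fit either gene, depending on how the authors counted.

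In CPM, Scd2 stood at 22.2, 32.4 and 19.1 in KO libraries, against 26.98, 27.06 and 39.86 in WT libraries. KO 2 was above WT 1 and WT 2, and WT 3 was the highest of all. The log2 fold change was -0.35 with a wide 95% interval of -0.94 to 0.24 (adjusted p = 0.298). It was -0.60 without KO 2 and -0.14 without WT 3, neither passing the test. The log2 fold change of Scd1 was 0.40 (95% interval -0.63 to 1.43, adjusted p = 0.505), so at this depth neither a rise of 2.69-fold nor a fall to 0.646 of the WT level could be told from no change.

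The elongases also stayed below the threshold. Elovl5, which lengthens polyunsaturated fatty acids (ENSMUSG00000032349, chromosome 9, 77917364 to 77984519, plus strand), stood at 59.9, 61.3 and 57.9 CPM in KO libraries, against 48.4, 49.9 and 58.8 CPM in WT libraries. The KO libraries lay within 1.06-fold of each other and above WT 1 and WT 2, with WT 3 inside their range. Elovl5 had a log2 fold change of 0.19 (SE 0.08, unadjusted p = 0.05001, adjusted p = 0.104 in edgeR's quasi-likelihood test), and 0.28 without WT 3 (adjusted p = 0.0262). With any other single library left out it was 0.13 to 0.21 and did not pass edgeR's test (adjusted p 0.139 to 0.301). Elovl6, which lengthens palmitate to stearate (ENSMUSG00000041220, chromosome 3, 129532355 to 129638495, plus strand), was low, at 5.62, 6.45 and 5.68 CPM in KO libraries and 6.30, 5.51 and 6.93 CPM in WT libraries. Its log2 fold change was -0.08 (95% interval -0.38 to 0.23, adjusted p = 0.662).

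Fads1 encodes the desaturase that completes arachidonic and eicosapentaenoic acid, the precursors of leukotrienes and prostaglandins (ENSMUSG00000010663, chromosome 19, 10182888 to 10196877, plus strand). It stood at 123, 127 and 125 CPM in KO libraries, against 153, 145 and 167 CPM in WT libraries. The groups were apart, and the KO libraries were within 1.03-fold of each other, the tightest of any member. Fads1 averaged 125 ± 1.85 CPM in KO and 155 ± 11.2 CPM in WT macrophages, a log2 fold change of -0.31 (SE 0.07, adjusted p = 0.0125), or -19.4% with a 95% interval of -27.5 to -10.4%. The call held in all 14 alternatives, with log2 fold changes of -0.37 to -0.25 and adjusted p of 0.00132 to 0.0480.

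Fads2, its neighbour on chromosome 19, carries out the earlier and rate-limiting desaturation of the same route (ENSMUSG00000024665, 10062765 to 10101746, minus strand). It stood at 4.46, 8.55 and 6.81 CPM in KO libraries, against 6.19, 5.09 and 11.1 CPM in WT libraries. The groups overlapped in part, with KO 1 the lowest and WT 3 the highest of all, and the highest library exceeded the lowest 1.92-fold within KO and 2.18-fold within WT, more than for any other member that passed the filter. The log2 fold change was -0.17 (95% interval -1.02 to 0.67, adjusted p = 0.725), and it was 0.04 without KO 1 and 0.22 without WT 3. A fall of Fads2 like that of Fads1 lies well within this interval.

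Acsl3, the acyl-CoA synthetase of the endoplasmic reticulum and of nascent lipid droplets (ENSMUSG00000032883, chromosome 1, 78657825 to 78707743, plus strand), stood at 19.1, 20.5 and 15.6 CPM in KO libraries, against 22.2, 21.4 and 26.8 CPM in WT libraries. Every KO library was below every WT library, yet the gene did not pass the test, with a log2 fold change of -0.35 (95% interval -0.65 to -0.06, unadjusted p = 0.0256, adjusted p = 0.0646 in edgeR's quasi-likelihood test). Of its 4357 exon bases, 244 are shared with Utp14b on the same strand, a gene of up to 13.3 CPM, so some counts may belong to either.

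**Figure D2:**
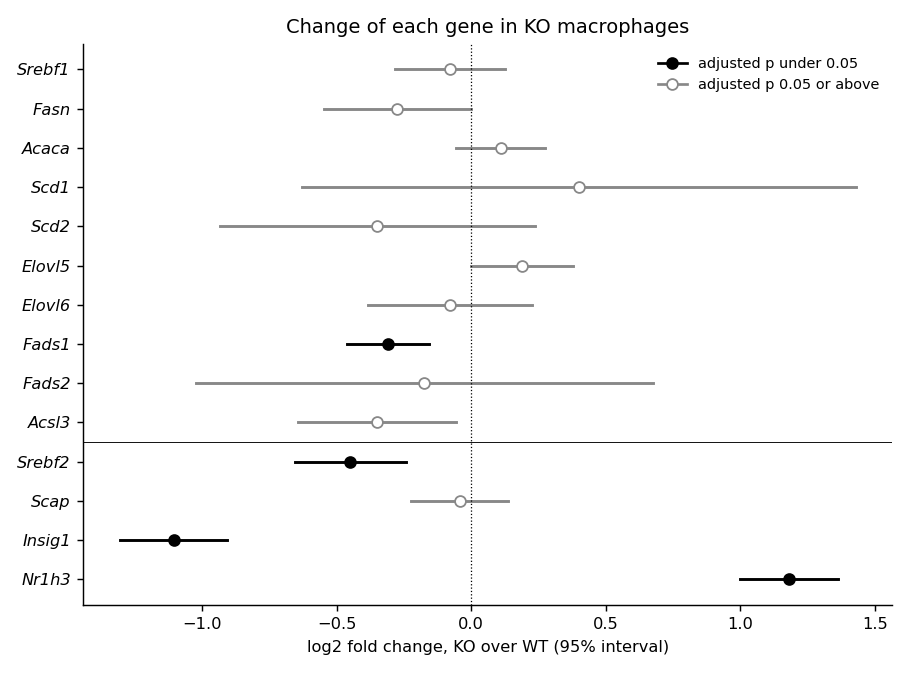
Log2 fold change of KO over WT (x axis) with its 95% interval for the 10 genes (above the line) and for 4 genes of SREBP and LXR control (below it). Filled black points passed the threshold: Fads1 at -0.31, Srebf2 at -0.45, Insig1 at -1.11 and Nr1h3 at 1.18, while the interval of Srebf1 spans 0.

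Levels were compared between genes as CPM per kilobase of merged exons. Fads1 was the most abundant member, at 26.002 ± 0.384 in KO and 32.3 ± 2.33 in WT macrophages. Elovl5 followed at 17.0 ± 0.474 in KO and 14.9 ± 1.59 in WT, and Srebf1 at 11.2 ± 1.09 in KO and 11.8 ± 0.833 in WT. Fasn, Scd2 and Acsl3 came next in that order, at 4.23 to 5.95 in KO and 5.39 to 7.20 in WT, but the libraries of neighbours in this order overlapped in either genotype. Fads2, at 2.005 ± 0.623 in KO and 2.26 ± 0.971 in WT, overlapped in the same way with Acaca, at 1.64 ± 0.0544 in KO and 1.52 ± 0.107 in WT. Elovl6 stood at 0.920 ± 0.0723 in KO and 0.971 ± 0.111 in WT, and Scd1 was last at 0.0442 ± 0.00723 in KO and 0.0343 ± 0.0109 in WT. The order of the means was the same in KO and WT. With the length of the longest transcript instead, Acsl3 passed Scd2 and Acaca passed Fads2 in WT.

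**Figure D3:**
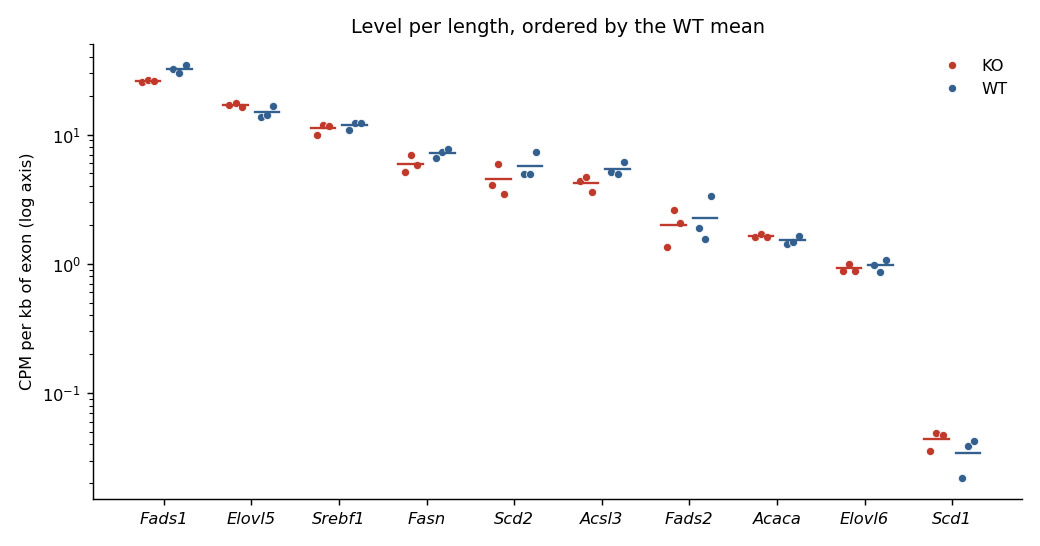
CPM per kilobase of merged exons (y axis, log scale) for the 10 genes, ordered by the WT mean, with points for the 3 KO (red) and 3 WT libraries (blue) and lines for the means. Fads1 is at the top near 26 in KO and 32 in WT, and Scd1 lies far below all others.

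Ratios of counts within a library do not depend on a scaling factor common to all its genes, and 4 were compared. The authors' normalized signal is not the counts times 1 factor per library, so ratios of genes in it can differ. On the log2 scale, the ratio of Acaca to Fasn counts was -1.04, -1.39 and -1.21 in KO libraries, against -1.56, -1.66 and -1.60 in WT libraries, a difference of 0.39 (KO minus WT) with groups apart. The ratio of Elovl6 to Elovl5 was -3.42, -3.25 and -3.35 in KO libraries, against -2.94, -3.18 and -3.08 in WT libraries, a difference of -0.27, also with groups apart. For each of these p was 0.1 in an exact permutation test, two-sided (0.133 adjusted over the 4 ratios), the smallest that 3 against 3 libraries allow, so this design cannot reach 0.05. The ratio of Scd1 to Scd2 averaged -6.81 ± 0.391 in KO and -7.58 ± 0.406 in WT (exact permutation p = 0.1, adjusted 0.133), from Scd1 counts of 4 to 7. Its groups were apart too, by little, with KO 2 at -7.08 and WT 2 at -7.16. The ratio of Fads1 to Fads2 averaged 4.29 ± 0.455 in KO and 4.46 ± 0.483 in WT (exact permutation p = 0.7), with overlapping groups. In the authors' normalized signal the KO and WT libraries overlapped for all 4 ratios. There the difference was 0.32 for Acaca to Fasn (exact permutation p = 0.5), 0.34 for Scd1 to Scd2 (p = 0.5, exact) and -0.23 for Elovl6 to Elovl5 (p = 0.2, exact), so the separation seen in counts was lost.

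**Figure D4:**
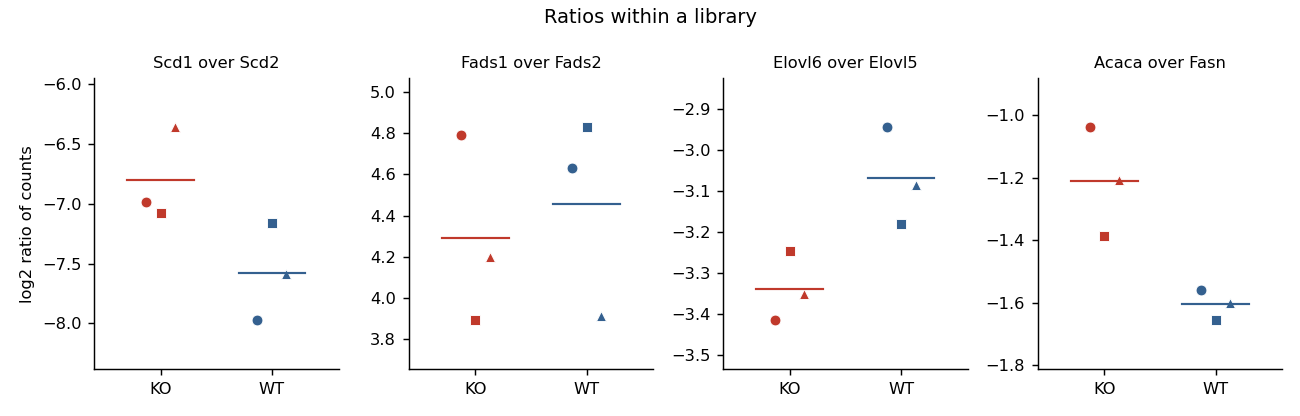
Log2 ratio of counts within each library (y axes differ between panels and do not start at 0) for 4 gene pairs in the 3 KO (red, left) and 3 WT libraries (blue, right), with lines for the means. In these counts the groups are apart for Elovl6 over Elovl5 and for Acaca over Fasn, with means that differ by -0.27 and 0.39. They are also apart for Scd1 over Scd2, by 0.77 from Scd1 counts of 4 to 7, and overlap for Fads1 over Fads2.

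The same libraries were the highest for nearly all members. KO 2 had the highest CPM among KO libraries for 10 of 10 members, where it was the highest for 38.1% of all genes tested. WT 3 had the highest among WT libraries for 9 of 10, Srebf1 being the exception, against 35% of all genes. In the authors' normalized signal KO 2 was the highest KO library for 7 of 10 members and WT 3 the highest WT library for 9 of 10. Cell cycle markers had the same highest libraries: the 8 genes summed to 894, 1403 and 1010 CPM in KO 1 to KO 3 and to 501, 396 and 696 CPM in WT 1 to WT 3, all 8 being detected and 3 rising in KO (Pcna, Mcm2 and Mcm5). Their part in the spread of the members was not tested.

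By the root mean square difference of log2 CPM centred per gene over the 6 libraries, the genes most like Srebf1 among 10277 candidates were Hk1 (0.0173), Sh3tc1 (0.0267) and Lsm14b (0.0350). For Scd2 they were Plekhf1 (0.158), Sqle (0.174) and Gng7 (0.175). The nearest genes of Scd2 were thus farther from it than those of Srebf1. Sqle, the squalene epoxidase of cholesterol synthesis, stood at 23.1, 32.0 and 24.9 CPM in KO libraries, against 32.8, 34.4 and 38.8 CPM in WT libraries, and fell (log2 fold change -0.41, adjusted p = 0.0468). Plekhf1 (-0.47, adjusted p = 0.0743) and Gng7 (-0.19, adjusted p = 0.381) did not pass the test.

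Of the genes that control SREBP1, the receptor gene Nr1h3 rose and the sensor gene Insig1 fell, each by more than 1 on the log2 scale. Nr1h3, the oxysterol receptor LXR alpha, stood at 44.5, 45.6 and 47.5 CPM in KO libraries, against 18.2, 21.1 and 21.4 CPM in WT libraries. It rose 2.27-fold (log2 fold change 1.18, SE 0.08, adjusted p = 0.00398). Insig1, which holds SREBPs in the endoplasmic reticulum and is itself an SREBP target, stood at 67.6, 57.9 and 55.5 CPM in KO libraries, against 136, 124 and 129 CPM in WT libraries, and fell (log2 fold change -1.11, SE 0.08, adjusted p = 0.00398). Srebf2, the gene of the factor that drives cholesterol synthesis, averaged 137 ± 12.7 CPM in KO and 187 ± 14.7 CPM in WT and fell (log2 fold change -0.45, adjusted p = 0.0102). Scap did not pass the test, at 45.8 ± 3.42 CPM in KO and 47.2 ± 3.13 CPM in WT (adjusted p = 0.679).

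Of 15 tested genes of SREBP and LXR control, 2 rose and 4 fell (40.0% called, beside 35.2% of all genes), with a median log2 fold change of -0.06. Abcg1, a cholesterol exporter and LXR target, was the other rise, at 195 ± 4.497 CPM in KO and 133 ± 18.3 CPM in WT. Other LXR targets of the list did not pass the test: the log2 fold change was -0.21 for Abca1 (adjusted p = 0.346), -0.03 for Mylip (adjusted p = 0.897) and 0.05 for Lpcat3 (adjusted p = 0.531). Rxra, the partner of LXR, fell to 139 ± 20.1 CPM in KO, against 200 ± 32.6 CPM in WT, a call lost without KO 2, KO 3, WT 1 or WT 2. The remaining fall was that of Rxrb (log2 fold change -0.41).

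Among 10 tested genes that supply acetyl-CoA, malonyl-CoA and NADPH, 0 rose and 2 fell in edgeR's test (20.0% called, beside 35.2% of all genes), with a median log2 fold change of -0.12. At an unadjusted p under 0.05, 0 rose in edgeR, DESeq2 and limma-voom and 1 rose in limma on the authors' signal. Mid1ip1, an activator of acetyl-CoA carboxylase, averaged 102 ± 8.24 CPM in KO and 129 ± 3.46 CPM in WT. Idh1, a cytosolic source of NADPH, averaged 237 ± 12.2 CPM in KO and 285 ± 3.80 CPM in WT, a call lost without WT 1. DESeq2 called 4 falls, adding Acss2 and G6pdx.

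Of the partners of the elongases and desaturases, 5 rose and 3 fell among 13 tested (61.5% called, beside 35.2% of all genes), with a median log2 fold change of 0.17. Within the elongation cycle the reductase Hsd17b12 rose, at 155 ± 11.5 CPM in KO and 121 ± 4.83 CPM in WT (lost without WT 1). The dehydratases moved in either direction: Hacd1 rose at a low level, at 4.14 ± 0.221 CPM in KO and 2.21 ± 0.206 CPM in WT, while Hacd4 fell, at 126 ± 24.5 CPM in KO and 223 ± 11.5 CPM in WT (log2 fold change -0.82, SE 0.13, adjusted p = 0.00730). Cyb5r3, the reductase that passes electrons through cytochrome b5 to the desaturases, rose, at 211 ± 27.2 CPM in KO and 148 ± 8.74 CPM in WT (log2 fold change 0.51).

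Among 7 other acyl-CoA synthetases and fatty acid transport proteins tested, 3 rose and 0 fell in edgeR's test (42.9% called, beside 35.2% of all genes), with a median log2 fold change of 0.07. At an unadjusted p under 0.05, 0 fell in edgeR, DESeq2 and limma-voom, and 1 fell in edgeR without KO 1. Slc27a1, a fatty acid transporter with acyl-CoA synthetase activity, averaged 219 ± 31.6 CPM in KO and 138 ± 24.3 CPM in WT (log2 fold change 0.66). Acsf3, the mitochondrial malonyl-CoA synthetase, averaged 10.4 ± 1.24 CPM in KO and 7.45 ± 0.148 CPM in WT. Acsl5 averaged 124 ± 7.44 CPM in KO and 107 ± 1.87 CPM in WT. All 3 calls were lost without KO 3, WT 1 or WT 2, those of Slc27a1 and Acsl5 also without KO 2, and that of Acsl5 also without WT 3. Fewer calls were made over all genes in these fits as well. They numbered 4532 with all libraries, 2379 without KO 3, 1979 without WT 1 and 2487 without WT 2. Without KO 2 they numbered 2719, and without WT 3 3679.

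In glycerolipid synthesis, which uses the acyl-CoA, 3 of 12 tested genes rose and 1 fell (33.3% called, near the 35.2% of all genes), with a median log2 fold change of 0.08. Lpin1, a phosphatidate phosphatase, averaged 42.4 ± 7.18 CPM in KO and 73.6 ± 2.08 CPM in WT and fell (log2 fold change -0.80, adjusted p = 0.00615). The acyltransferases Agpat4, Agpat5 and Gpat4 rose by log2 fold changes of 0.63, 0.25 and 0.23. Their 3 calls were lost without KO 2, KO 3, WT 1 or WT 2, and that of Gpat4 also without WT 3. Calls over all genes numbered 1979 to 3679 in these fits, against 4532 with all libraries.

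In fatty acid oxidation, the opposite pathway, 6 of 17 tested genes rose and 2 fell (47.1% called, beside 35.2% of all genes), with a median log2 fold change of 0.12. Etfb and Etfa, which pass electrons from the oxidation to the respiratory chain, rose, Etfb to 62.3 ± 5.65 CPM in KO, against 45.0 ± 4.40 CPM in WT, and Etfa to 68.5 ± 4.08 CPM in KO, against 55.9 ± 2.84 CPM in WT (lost without WT 2). Hadhb, a subunit of the mitochondrial trifunctional protein, averaged 69.1 ± 4.11 CPM in KO and 54.4 ± 2.90 CPM in WT. Ppard, a fatty acid-activated nuclear receptor, fell to 34.4 ± 6.17 CPM in KO, against 61.5 ± 7.57 CPM in WT (log2 fold change -0.84). Without KO 2, KO 3, WT 1 or WT 3, 3 rises were called (Etfa, Etfb and Hadhb). Without WT 2, 3 were called (Etfb, Hadhb and Cpt1b, which is not among the 6), and the 2 falls became 1 without KO 2, KO 3, WT 1 or WT 2. Over all genes, 1979 to 3679 were called in these fits, against 4532 with all libraries. Without WT 2 and KO 2 together, the 19 rises and 12 falls over all 6 lists became 1 and 6, with 14 and 11 at an unadjusted p under 0.05. Calls over all genes likewise went from 4532 of 12862 to 1378 of 12944 without these 2 libraries.

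**Figure D5:**
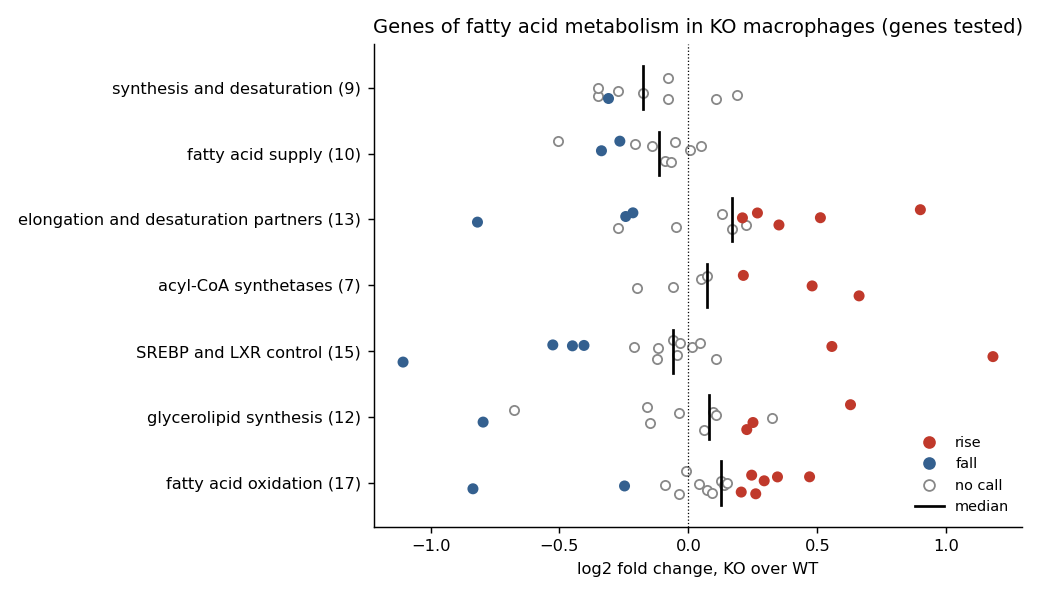
Log2 fold change of KO over WT (x axis) of each tested gene of the synthesis and desaturation set and of 6 related lists (rows, number tested in parentheses), with red points for rises, blue for falls, open points for no call and a black line for the median. The synthesis and desaturation row holds 1 fall and 8 uncalled genes between -0.35 and 0.19, while SREBP and LXR control reaches from -1.11 to 1.18.

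None of the 10 members lies on chromosome 8, which carries Cdh11. Of the called list genes, Slc27a1, Acsf3, Agpat5, Gpat4 and Tecr do lie on it, as do Acsl1 and Mbtps1, which were not called. Over all chromosomes 35.2% of genes tested were called, and the share on chromosome 8 alone was not computed. The listed genes start between 18846277 (Agpat5) and 122775486 (Acsf3). Whether lying on the chromosome of Cdh11 plays a part in their levels in these mice of mixed background was not tested.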

How the data were processed

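Total RNA of bone marrow-derived macrophages was sequenced from directional libraries, per the labels' protocols. The authors deposited whole-number counts per Ensembl gene and a second table of normalized signal. The ratio of signal to counts differed between the genes of a library (57.0 to 72.0% of genes lay more than 1% from their library's median ratio). How the signal was made is not given in the sources used here. DRAGEN, DESeq2 and mm10 are named in the submitters' processing notes, without roles. For the annotation, the strand setting and the counting rule the entry is: not given in the sources used here. Replicates were numbered in accession order within a genotype, and the numbers pair no samples.

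Deposited counts were tested with edgeR 4.0.16 (filterByExpr with a minimum count of 10, TMM, robust quasi-likelihood F test, KO over WT, 3 against 3 libraries, no covariate), adjusting over the 12862 genes kept. Standard errors are the coefficient over the root of F. Limma 3.58.1, DESeq2 1.42.0, other scalings, no filter, the deposited signal (log2 of signal plus 1) and fits without single libraries served as alternatives, as did a fit without WT 2 and KO 2 together, which stood apart in earlier results. The test was checked on simulated counts with changes larger than those of the members, so the check does not cover changes of their size. All 42256 gene IDs matched GENCODE M21, which gave positions and exon lengths on GRCm38, the assembly of mm10. Promoters came from RefSeq (GRCm38.p6). Chi-square per degree of freedom between replicates was 12.6 to 52.9, above sampling noise, so no library was counted as a second copy of another; repeat preparations from 1 animal cannot be told apart. A count of 3 equals 0.0804 to 0.113 CPM. Intervals from counts cover counting error only.

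The members and lists were chosen with earlier results of these data known. Named genes are the 10 members, up to 4 called genes of each list with the largest absolute log2 fold change (mean log2 CPM 1 or more), Srebf2, Insig1, Scap and Nr1h3 whatever their result, and the 3 genes most like Srebf1 and Scd2. Rxrb, Acss2, G6pdx, Abca1, Mylip, Lpcat3, Cpt1b, Tecr, Acsl1 and Mbtps1 were named after their values were seen.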

Additional observations from a re-analysis of the deposited data

How the results depend on the processing

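Of the members, 1 was called by RLE and plain-total scaling, DESeq2, limma-voom and the authors' signal, 2 with upper quartile scaling (adding Elovl5), 2 without the filter (adding Acsl3), and 1 to 2 when single libraries were left out. Fads1 was called in each of the 14. The log2 fold change of Acaca was -0.067 with the authors' signal (limma, adjusted p = 0.733). That of Fads2 was 0.040 without KO 1 and 0.22 without WT 3, in a range of -0.40 to 0.22 over single libraries left out. The KO minus WT difference of the log2 ratio of Fads1 to Fads2 was 0.036 without KO 2 and 0.021 without WT 2, in a range of -0.44 to 0.036. The cause of these changes of sign was not tested. DESeq2 called 4 falls among the supply genes.

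With single libraries left out, falls of supply genes numbered 1 to 3, rises of partners 2 to 6, rises of synthetases 0 to 3, rises and falls of glycerolipid genes 0 to 3 and 1 to 2, and rises and falls of oxidation genes 3 to 7 and 1 to 2. Calls over all genes numbered 1979 to 5456 in these fits, against 4532 with all libraries. Without WT 2 and KO 2 together, which leaves 4 libraries, edgeR called 0 falls of supply genes (2 at an unadjusted p under 0.05), 0 rises (4 unadjusted) and 1 fall of partners, 0 rises of synthetases (2 unadjusted), 1 rise of SREBP and LXR control genes, 0 rises of glycerolipid genes (1 unadjusted), and 0 rises (4 unadjusted) and 1 fall of oxidation genes. Over all genes, that fit called 1378 of 12944. With the longest transcript as length, WT levels per kilobase were 15.5 for Srebf1, 7.84 for Fasn, 2.72 for Acaca, 18.8 for Elovl5 and 44.9 for Fads1. The scalings moved the median log2 fold change of all genes to at most 0.06. Depth limits Scd1, at 4 to 7 counts. No paired analysis was possible because the labels give no replicate numbers shared between the genotypes.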
